A study of Mus musculus with 58 samples.

Results

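The autophagy genes described here were Ulk1, Becn1, Atg5, Atg7, Map1lc3a, Map1lc3b, Gabarapl1, Sqstm1 and Tfeb, which were taken by their symbols from a table of read counts. These were 9 of the 52459 genes in the table and 9 of the 19120 genes that were expressed in the retina, where a gene was expressed if its median over all libraries was above 4 normalized counts. RNA was sequenced from 58 individual mouse retina samples collected at 6 zeitgeber times (ZT, hours after lights on). The diabetic group held 28 libraries from heterozygous male Ins2Akita mice, in which a mutation in 1 copy of the insulin 2 gene causes misfolding of insulin and loss of beta cells, and the control group held 30 libraries from male littermates without the mutation. Both groups were on the C57BL/6 background, had lived under 12 h of light and 12 h of dark from birth, and were 4 months old when they were perfused with cold saline and the retinas were dissected, at night under dim red light. At ZT1, ZT5, ZT9, ZT13, ZT17 and ZT21 there were 5, 6, 5, 5, 5 and 4 control libraries and 5, 5, 5, 4, 4 and 5 diabetic libraries. The mutation changes the sequence of insulin 2 and not the number of gene copies, so counts per gene could not check the genotype labels.

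Autophagy is the route by which a cell encloses part of its own cytoplasm in a double membrane, the autophagosome, and delivers it to the lysosome for breakdown. The ULK1 kinase starts the process when nutrients are low, the Beclin 1 lipid kinase complex marks the membrane, the ATG5 and ATG7 conjugation machinery couples proteins of the ATG8 family (LC3 and GABARAP) to it, and receptors such as p62 bring the cargo. In the retina, photoreceptors turn over part of their content every day, and autophagy in these cells and in the neighbouring pigment epithelium is known to differ between light and dark. A transcript level is not a measure of autophagic flux, which depends largely on the modification and turnover of these proteins.

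The libraries held 7773117 to 22147398 counted reads each. All 4 listed markers each of cones, Müller glia, bipolar cells and ganglion cells were expressed, so the tissue label held, while 0 of 5 blood markers reached the expression threshold. Summed cone markers ran from 8890 to 11500 normalized counts and summed Müller glia markers from 35500 to 53900. Summed lens markers were above 1000 normalized counts in 3 control libraries, at ZT1, ZT17 and ZT21, with a highest value of 42200, and at or below 964 in the diabetic libraries. Summed pigment epithelium markers (Rpe65, Ttr, Lrat, Best1, Rgr) ran from 338 to 4450 normalized counts. The library least like the others was control ZT17 replicate 3, with a median Pearson correlation of 0.9678 with the rest over the expressed genes, followed by diabetic ZT17 replicate 3 at 0.9712. As these were whole retinas, fewer cells of a type and less RNA per cell cannot be told apart in any value below.

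Per exon length, the autophagy genes covered a wide range of levels. The length was that of all annotated exons of a gene merged, with 7.52 kb for Map1lc3b, 7.07 kb for Becn1 and 1.18 kb for Map1lc3a. A gene whose transcripts use only part of these exons would appear lower, so the order depends in part on the annotation. The same length divided every library. Gabarapl1, an ATG8 family member related to GABARAP, was the highest, with 1460 ± 175 normalized counts per kb in control retinas (SD, n = 30), above 99.1% of the expressed genes. Sqstm1, which encodes the cargo receptor p62, followed with 684 ± 67.7 per kb, and Map1lc3a, which encodes LC3A, with 525 ± 82.5 per kb. Ulk1, the initiating kinase, had 249 ± 40.5 per kb and Map1lc3b, which encodes LC3B, had 151 ± 11.7 per kb. The remaining genes were lower, with 115 ± 6.17 per kb for Becn1 (Beclin 1), 101 ± 12.0 per kb for Atg5, 47.1 ± 4.26 per kb for Atg7, the activating enzyme of the conjugation reactions, and 27.9 ± 4.26 per kb for Tfeb, a transcription factor of lysosomal and autophagy genes. Tfeb was thus above 35.8% of the expressed genes. The order was the same in diabetic retinas, where Gabarapl1 had 1480 ± 199 and Tfeb 29.9 ± 5.40 normalized counts per kb (SD, n = 28). Most neighbours in this order kept it in every library, and Becn1 and Atg5 did not: Becn1 was the higher in 28 of 30 control and 25 of 28 diabetic libraries, with a ratio of means of 1.14 and 1.15. Sqstm1 was above Map1lc3a in all 30 control and all 28 diabetic libraries although their ranges over libraries overlapped.

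**Figure D1:**
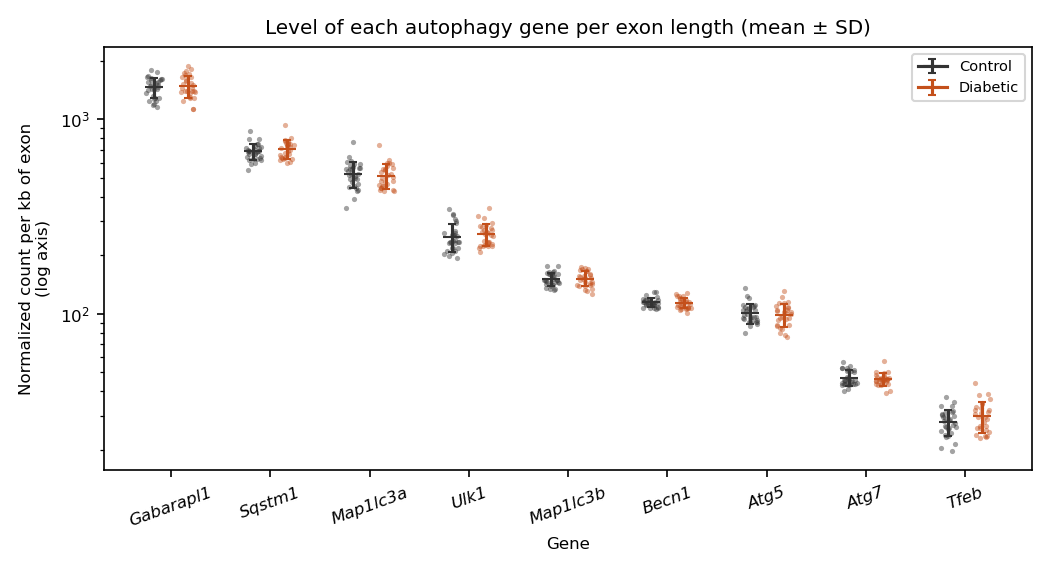
Level of each autophagy gene in normalized counts per kb of merged exon, on a log axis, in control and diabetic retinas; points are libraries, and the marks with bars are the mean ± SD of 30 control and 28 diabetic libraries. Gabarapl1 lies highest (1460 per kb in control retinas) and Tfeb lowest (27.9 per kb), and the genotypes overlap for each gene.

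The genes lie on 7 chromosomes (GRCm38, Gencode M21). Ulk1 is at chr5:110784488-110810097 on the minus strand, Map1lc3a at chr2:155276297-155278073 and Atg5 at chr10:44268358-44364291 on the plus strand, and Tfeb at chr17:47737030-47792419 on the plus strand, and none of these shares exon bases with another gene. Atg7, at chr6:114643097-114860614 on the plus strand, shares none either. Gabarapl1 (chr6:129533160-129542346, plus) shares 570 exon bases with 1700101I11Rik, Map1lc3b (chr8:121590361-121598760, plus) 58 with Zcchc14, Sqstm1 (chr11:50199366-50210827, minus) 580 with Mrnip, and Becn1 (chr11:101285952-101302286, minus) 3104 with Cntd1, all of them genes on the opposite strand. The median counts of 1700101I11Rik, Mrnip and Cntd1 were 29, 84 and 32 per library, and that of Zcchc14 was 1697. The strand setting of the counting and its handling of overlaps were not given in the sources used here. It is thus not known whether reads of these exons were counted, dropped or given to the other gene.

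RefSeq promoters, from 250 bases before to 50 bases after a gene start, were listed for 7 of the 9 genes (GRCm38.p6), as 9 sequences of which 3 belong to Tfeb. The letters CACGTG, the E-box read by clock proteins and by TFEB-related factors, occurred in 2 of the 9, against 7.15% of all 32851 promoters and 9.32% of the 15301 promoters of expressed genes, and were in the promoters of Atg5, first base 14 bases before the start, and Atg7, 132 bases before it. TCACGTGA, the core of the element bound by TFEB, which holds an E-box, was in 0 of the 9 promoters, 0.974% of all and 1.62% of those of expressed genes. TTATGTAA (D-box) and AGGTCA (the core read by ROR and REV-ERB factors) were also in 0 of the 9, against 0.938% and 16.3% of all and 0.608% and 12.7% of those of expressed genes, each searched on both strands. The promoters of the 2 genes with an E-box and of Ulk1 and Gabarapl1, whose transcripts were high at night (below), are shown with the E-box in capitals. They are at chr10:44268089-44268388 (plus) for Atg5, chr6:114670846-114671145 (plus) for Atg7, which is a start inside the Gencode gene, chr5:110810032-110810331 (minus) for Ulk1 and chr6:129532942-129533241 (plus) for Gabarapl1.
Atg5: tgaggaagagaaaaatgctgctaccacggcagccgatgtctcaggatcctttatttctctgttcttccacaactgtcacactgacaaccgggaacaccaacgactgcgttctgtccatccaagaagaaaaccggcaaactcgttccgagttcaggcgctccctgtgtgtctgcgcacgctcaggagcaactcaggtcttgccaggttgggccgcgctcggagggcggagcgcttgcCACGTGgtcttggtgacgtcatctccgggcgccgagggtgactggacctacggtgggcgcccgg
Atg7: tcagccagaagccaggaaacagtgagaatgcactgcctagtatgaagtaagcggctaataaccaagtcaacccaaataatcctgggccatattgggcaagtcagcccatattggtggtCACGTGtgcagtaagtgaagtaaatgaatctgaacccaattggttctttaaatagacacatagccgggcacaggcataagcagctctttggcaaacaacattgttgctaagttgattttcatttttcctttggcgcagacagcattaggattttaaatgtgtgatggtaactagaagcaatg
Ulk1: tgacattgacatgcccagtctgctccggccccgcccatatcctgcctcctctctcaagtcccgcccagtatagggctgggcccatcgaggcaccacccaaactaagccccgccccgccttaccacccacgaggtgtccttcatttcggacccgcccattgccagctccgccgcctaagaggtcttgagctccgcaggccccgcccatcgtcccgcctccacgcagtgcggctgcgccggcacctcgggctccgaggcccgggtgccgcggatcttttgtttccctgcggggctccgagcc
Gabarapl1: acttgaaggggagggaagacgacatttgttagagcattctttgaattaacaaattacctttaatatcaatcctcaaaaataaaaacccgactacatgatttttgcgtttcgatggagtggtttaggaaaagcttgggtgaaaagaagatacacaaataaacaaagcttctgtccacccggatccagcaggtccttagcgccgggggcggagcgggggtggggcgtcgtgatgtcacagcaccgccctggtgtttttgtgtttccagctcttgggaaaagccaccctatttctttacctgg
A match of letters is a description of the sequence and not of a bound site.

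Diabetic and control retinas were compared over all time points and at each time point to ask whether the level of these genes depended on genotype. No autophagy gene passed the test in any of the 7 comparisons (edgeR quasi-likelihood test, Benjamini-Hochberg adjusted p under 0.05 over 19120 genes). Over all time points 0 of 9 were called, where 3.19% of all genes were, and 0 had an unadjusted p under 0.05 in edgeR or DESeq2, where 16.0% of all genes had one in edgeR. The differences, diabetic minus control, lay between -0.03 and 0.10 on the log2 scale, with standard errors of 0.02 to 0.06. Tfeb had the largest, at 0.10 ± 0.06 (SE; 1.07-fold, adjusted p = 0.433). Map1lc3b, at 0.00 ± 0.03, and Becn1, at -0.01 ± 0.02, were the closest to 0. The fit over all time points had no term for time of day. With time point as a factor 0 of 9 were again called, where 5.12% of all genes were.

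At single time points 0 of 9 were again called, where 0.0209%, 0.0209%, 0.00523%, 0%, 0.251% and 0% of all genes were called at ZT1, ZT5, ZT9, ZT13, ZT17 and ZT21. In these 54 tests the differences ran from -0.18 to 0.23 with standard errors of 0.06 to 0.14, and the smallest adjusted p was 0.639. None of the 54 had an unadjusted p under 0.05, where 5.77%, 6.34%, 4.53%, 4.38%, 9.34% and 4.96% of all genes had one at the 6 times. The smallest unadjusted p, 0.0937, belonged to Tfeb at ZT5. The 6 control libraries there held from 111.8 to 160.0 normalized counts with a median of 127.4, and the 5 diabetic libraries held 150.5, 140.4, 131.1, 150.8 and 174.9, so the groups overlapped. Tfeb was also the most uneven gene among the diabetic libraries of 1 time point: at ZT9 they held 133.6, 133.7, 134.6, 216.6 and 249.5 normalized counts, with 3 libraries close together and 2 above them. Of the longer list of 80 autophagy genes, which covers the kinase complexes, conjugation machinery, receptors, fusion factors and the mTORC1 and AMPK branches, 0 passed in any of these 7 comparisons in edgeR or DESeq2. Over all time points 10 had an unadjusted p under 0.05 in each tool, where 3050 of 19120 genes (16.0%) had one in edgeR and 2971 in DESeq2. With trends of G and C content and exon length removed (below), 3 of the 80 passed over all time points, where 4.87% of all genes did.

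**Figure D2:**
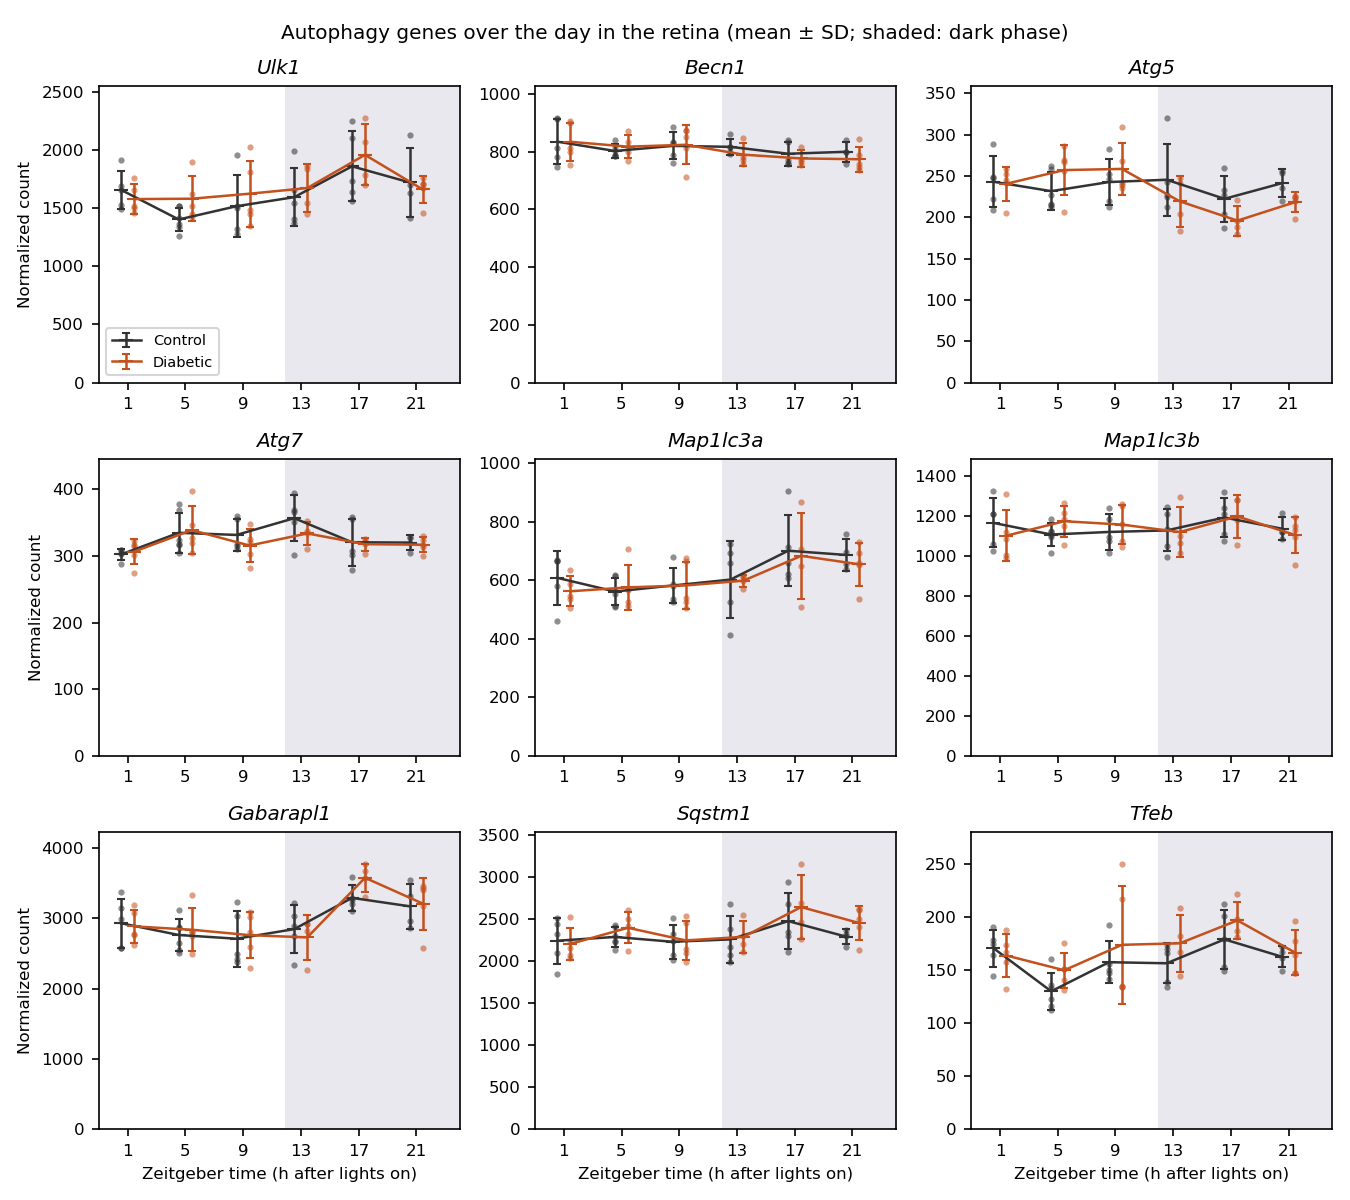
Normalized counts of the 9 autophagy genes against zeitgeber time in control and diabetic retinas; points are libraries, lines join the means and bars are the SD, with 4 to 6 libraries per mean and the dark phase shaded. Control and diabetic libraries overlap at most times, and Ulk1, Map1lc3a, Map1lc3b, Gabarapl1, Sqstm1 and Tfeb have their highest means at ZT17 in both genotypes.

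Within each genotype, ZT17 (middle of the dark phase) was compared with ZT5 (middle of the light phase) to ask whether the genes differed between night and day. In control retinas 2 of 9 genes, Ulk1 and Tfeb, were higher at ZT17, where 7.6% of all genes were called higher and 8.14% lower (15.7% in all). Ulk1 held 2101.3, 1562.5, 2252.0, 1736.3 and 1642.3 normalized counts in the control libraries at ZT17, and a lowest of 1257.7, a median of 1388.9 and a highest of 1520.8 in the 6 at ZT5. Every ZT17 library was thus above every ZT5 library, and the difference was 0.40 ± 0.11 on the log2 scale (SE; 1.32-fold, adjusted p = 0.00913). Tfeb held 200.4, 152.9, 211.8, 179.3 and 148.9 at ZT17 and from 111.8 to 160.0 at ZT5. The highest ZT5 library of Tfeb was above 2 of the ZT17 libraries, and the difference was 0.47 ± 0.13 (1.38-fold, adjusted p = 0.01).

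The ATG8 genes Gabarapl1 and Map1lc3a lay just above the threshold in control retinas in edgeR, and below it in DESeq2 (adjusted p = 0.0406 and 0.0460), which called 4 of 9 genes and 16.1% of all genes. Within edgeR, Gabarapl1 was also below it with DESeq2 size factors (adjusted p = 0.046) or another filter on low counts (adjusted p = 0.0466). Of all genes, 15.6% and 16.1% were called in these settings. Gabarapl1 held 3260.8, 3290.6, 3591.1, 3210.1 and 3104.3 normalized counts at ZT17, against a lowest of 2510.4, a median of 2756.7 and a highest of 3119.4 at ZT5, so that 1 pair of libraries crossed. Its difference was 0.24 ± 0.09 (adjusted p = 0.0504). Map1lc3a differed by 0.31 ± 0.11 (adjusted p = 0.0550), with 657.9, 714.0, 905.2, 621.9 and 606.6 at ZT17 and 507.8 to 618.9 at ZT5. Map1lc3b, the LC3 gene most often used as a marker of autophagosomes, differed by 0.10 ± 0.07 (adjusted p = 0.364), Sqstm1 by 0.11 ± 0.08 (adjusted p = 0.388), and Becn1, Atg5 and Atg7 by -0.03 to -0.07.

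In diabetic retinas 2 of 9 genes were called, where 3.8% of all genes were called higher and 3.95% lower (7.76% in all). Gabarapl1 was higher at ZT17, with 3570.6, 3770.4, 3301.2 and 3668.4 normalized counts against 2746.7, 2803.6, 2809.8, 3330.0 and 2498.6 at ZT5, where only replicate 4 reached the night values. The difference was 0.33 ± 0.10 on the log2 scale (adjusted p = 0.0266). Atg5, whose product forms the conjugate that directs lipidation of the ATG8 proteins, was lower at ZT17. It held 221.5, 179.4, 188.0 and 195.5 normalized counts at ZT17 and 256.6, 286.3, 267.1, 206.8 and 270.0 at ZT5, where again replicate 4 alone lay among the night values. The Atg5 difference was -0.40 ± 0.11 (0.759-fold, adjusted p = 0.0142), beside -0.07 ± 0.10 (adjusted p = 0.646) in control retinas. Ulk1 had 0.30 ± 0.12 (adjusted p = 0.116), Tfeb 0.38 ± 0.13 (adjusted p = 0.0730) and Map1lc3a 0.24 ± 0.13 (adjusted p = 0.265).

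The number of calls moved with single libraries, for the autophagy genes and for all genes together. Without control ZT17 replicate 3, which held the highest value of Ulk1, Gabarapl1, Tfeb and Map1lc3a at that time, 0 of 9 genes were called in control retinas, with 0.32 ± 0.11 for Ulk1 (adjusted p = 0.0683) and 0.40 ± 0.14 for Tfeb (adjusted p = 0.0600). Over all genes the calls then went from 3011 to 1410. Without control ZT17 replicate 5 or control ZT5 replicate 4, 4 of 9 were called (3203 and 2800 of all genes), and 3 without control ZT17 replicate 4 or control ZT5 replicate 5 (3261 and 3085 of all genes). Without the 3 control libraries with lens transcripts 4 of 9 were called, where 16.5% of all genes were, with 0.27 ± 0.09 for Gabarapl1 and 0.36 ± 0.12 for Map1lc3a. In diabetic retinas 0 of 9 were called without diabetic ZT17 replicate 3 or without diabetic ZT5 replicate 2, 1 without diabetic ZT5 replicate 1 or ZT17 replicate 5, and 2 without diabetic ZT5 replicate 5, with Tfeb (0.45 ± 0.14, adjusted p = 0.0485) in place of Gabarapl1. The calls over all genes, 1483 with every library, were 917, 1085, 1142, 936 and 1190 in these settings, in the order given. Without diabetic ZT5 replicate 4, 3 were called, with Ulk1 at 0.37 ± 0.12 (adjusted p = 0.0451), and 1818 of all genes.

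Other measures moved between the same time points. Depth was 15656408 to 19929725 reads at ZT17 and 7773117 to 18020493 at ZT5 in control retinas, and 18193309 to 20301393 against 8588878 to 18287074 in diabetic retinas. Pigment epithelium markers summed to 1680 to 2920 normalized counts at ZT17 and 477 to 2130 at ZT5 in control retinas, and to 967 to 2640 against 338 to 498 in diabetic retinas, where the groups did not overlap, and 4 of the 5 were called in each genotype. Müller glia markers (Glul, Rlbp1, Slc1a3, Apoe) summed to 45900 to 52300 at ZT17 and 37800 to 43200 at ZT5 in control retinas, and to 44300 to 53900 against 35500 to 47000 in diabetic retinas. Bipolar cell markers were likewise at 21800 to 24300 against 18600 to 20600 in control and 20400 to 23100 against 16700 to 19700 in diabetic retinas. Of the 4 Müller glia markers 1 was called in control and 0 in diabetic retinas, and of the 4 bipolar cell markers 3 and 1. Cone markers summed to 9350 to 10500 at ZT17 against 10200 to 11000 at ZT5 in control retinas. They summed to 9230 to 11200 against 9410 to 10400 in diabetic retinas, with 1 of 4 called in each genotype. The ranges of rod and ganglion cell markers overlapped between these times in both genotypes. The part of these cells and of depth in the differences of the autophagy genes was not tested.

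The genes also differed in base composition. The exons of Tfeb, Map1lc3a and Ulk1 held 61.3%, 61.1% and 58.1% G and C and those of Gabarapl1 53.8%, against 45.7% for Atg5, where the quartiles over expressed genes were 44.8%, 49.4% and 54.3%. With the trends of each library in G and C content and exon length removed, Ulk1 was called in both genotypes, at 0.23 ± 0.06 in control (adjusted p = 0.00652) and 0.21 ± 0.07 in diabetic retinas (adjusted p = 0.0338). Gabarapl1 remained called in diabetic retinas at 0.29 ± 0.09 (adjusted p = 0.0201) and had 0.18 ± 0.08 in control retinas (adjusted p = 0.123). Tfeb lost its call in control retinas, at 0.27 ± 0.12 (adjusted p = 0.130), and Map1lc3a fell to 0.13 ± 0.10 (adjusted p = 0.361). Atg5 remained lower at night in diabetic retinas, by -0.33 ± 0.10 (adjusted p = 0.0236), and its difference in control retinas turned from -0.07 to 0.04 ± 0.09.

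**Figure D3:**
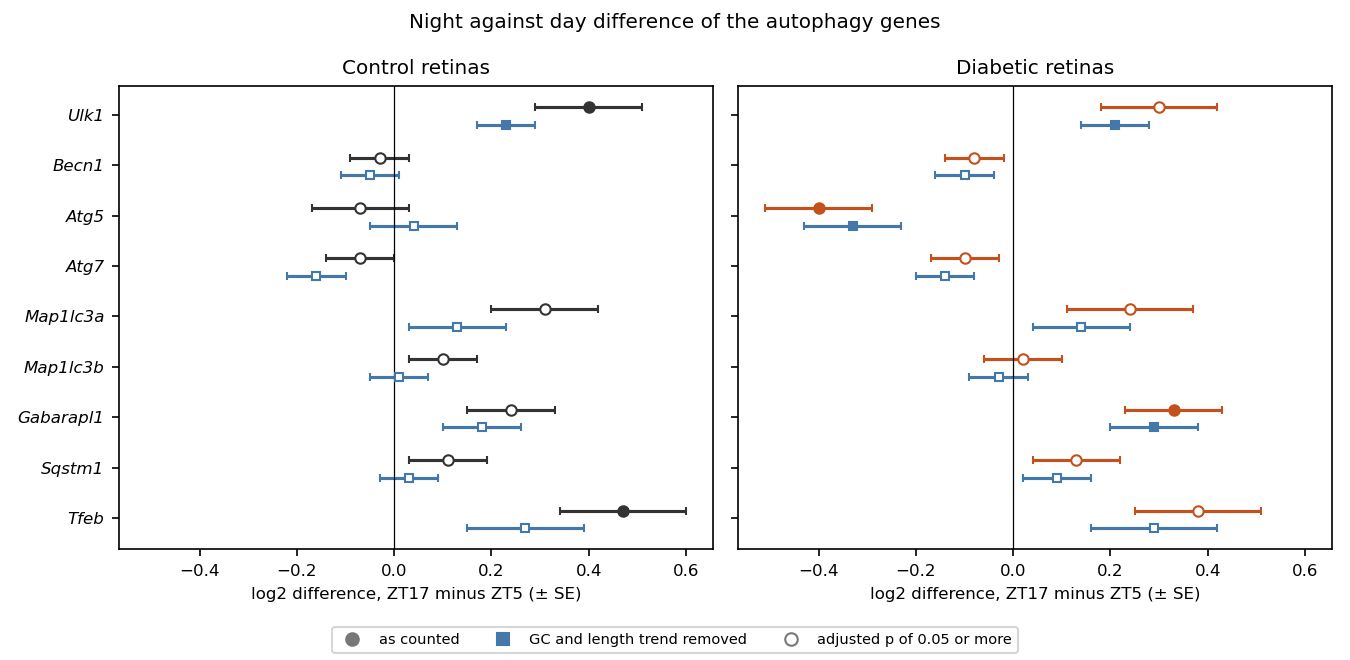
Difference of each autophagy gene between ZT17 and ZT5 on the log2 scale (± SE) in control and diabetic retinas; circles are the counts as deposited, squares the same with trends of G and C content and length removed, and filled symbols have an adjusted p under 0.05. Ulk1 has 0.40 as counted and 0.23 after removal in control retinas, and Atg5 has -0.40 and -0.33 in diabetic retinas.

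At the edges of the phases, ZT13 (early dark) against ZT1 (early light), 0 of 9 genes were called in either genotype, where 0.858% of all genes were in control (0.481% higher, 0.377% lower) and 1.42% in diabetic retinas (0.905% higher, 0.518% lower). Atg7 in control retinas was the single one with an unadjusted p under 0.05, in edgeR and in DESeq2, with 365.5, 302.1, 369.2, 395.1 and 350.8 normalized counts at ZT13 and 303.7, 302.4, 287.6, 308.4 and 309.0 at ZT1. All but replicate 2 at ZT13 were above every ZT1 library. The difference was 0.24 ± 0.07 (1.18-fold, adjusted p = 0.0953), and it was called without control ZT13 replicate 2 (0.29 ± 0.07, adjusted p = 0.0468) or with the G and C content and length trends removed (0.26 ± 0.06, adjusted p = 0.0172). In diabetic retinas Atg7 had 0.12 ± 0.08 (adjusted p = 0.620).

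A rhythm over the 6 time points was sought with empirical JTK_CYCLE, which compares the order of the libraries with 24 h waves of several phases and shapes, and a gene was called rhythmic where the unadjusted permutation p was under 0.05 and its highest library exceeded its lowest by more than 25%. In control retinas 4 of 9 genes were rhythmic, where 21.8% of all genes were, and all 4 peaked between ZT18.4 and ZT19.3, in the dark phase. Ulk1 had a cosine amplitude of 12.2 ± 3.62% of its mean (SE) and an acrophase, the fitted peak time, of ZT18.6 ± 1.15 h (permutation p = 0.00985, adjusted p = 0.0829). Gabarapl1 had 9.68 ± 2.63% at ZT19.3 ± 1.02 h (permutation p = 0.0113, adjusted p = 0.0905). Tfeb had 10.8 ± 3.47% at ZT18.4 (permutation p = 0.0296) and Map1lc3a 11.3 ± 3.58% at ZT18.8 (permutation p = 0.0369). Over all expressed genes the median amplitude was 7.07%. After Benjamini-Hochberg adjustment over all genes 0 of 9 passed, where 8.43% of all genes did, with no limit on the fold.

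In diabetic retinas 2 of 9 genes were rhythmic, where 23.9% of all genes were. Gabarapl1 had an amplitude of 10.9 ± 2.97% with its peak at ZT18.9 ± 1.06 h (permutation p = 0.0146, adjusted p = 0.0964). Atg5 peaked by day, at ZT5.7 ± 0.794 h, with 13.2 ± 2.77% (permutation p = 0.000945), and was the single autophagy gene of the 9 past the adjusted threshold (adjusted p = 0.0168, where 9.89% of all genes passed). Its means over the diabetic libraries were 240.8, 257.3, 258.7, 219.5, 196.1 and 218.5 normalized counts from ZT1 to ZT21, with SDs of 11.8 to 31.2, and those of the control libraries 243.2, 231.8, 242.8, 245.6, 222.5 and 241.5, with SDs of 16.8 to 43.3. Ulk1, Tfeb and Map1lc3a had diabetic amplitudes of 8.53%, 10% and 8.91% (SE 3.36, 4.68 and 3.55) and peaks at ZT16.4, ZT15.6 and ZT17.6, with permutation p of 0.145, 0.101 and 0.122. Sqstm1, Map1lc3b, Becn1 and Atg7 were not called in either genotype, with amplitudes of 1.02% to 5.97% of their means.

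**Figure D4:**
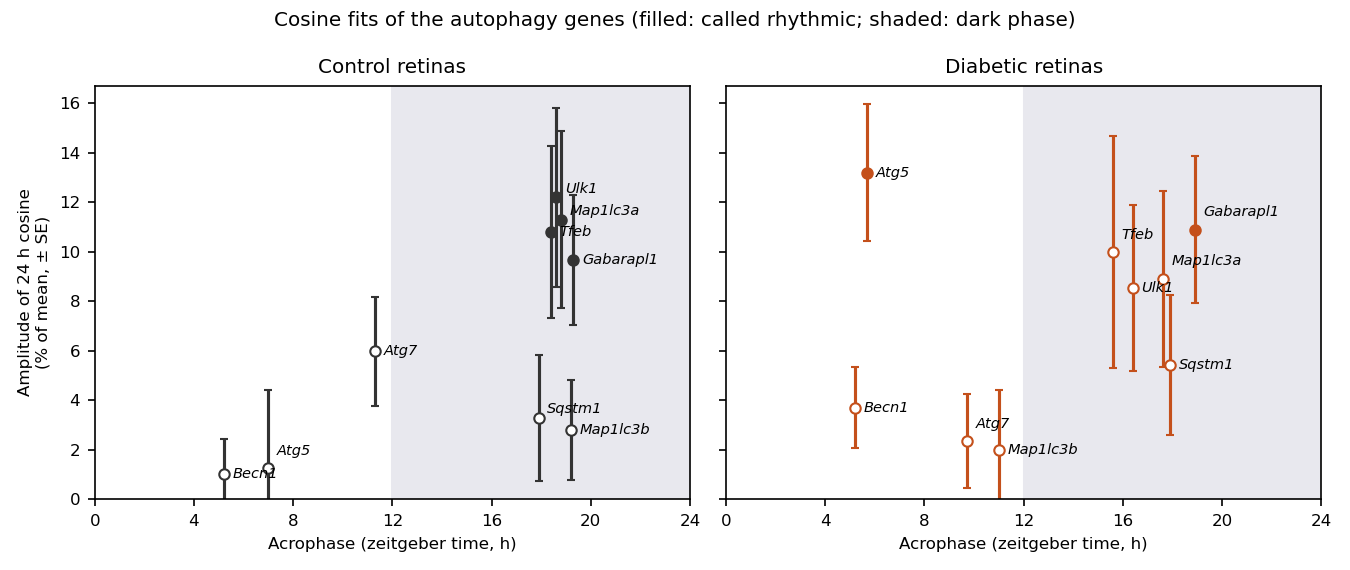
Amplitude of the fitted 24 h cosine in percent of the mean (± SE) against acrophase in zeitgeber time for the 9 autophagy genes, in control and diabetic retinas; filled points were called rhythmic and the dark phase is shaded. In control retinas Ulk1, Gabarapl1, Tfeb and Map1lc3a lie together between ZT18.4 and ZT19.3, and in diabetic retinas Atg5 lies at ZT5.7 and Gabarapl1 at ZT18.9.

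With a cosine fitted to the counts in edgeR and an adjusted p under 0.05, 3 of 9 genes passed in control retinas (Ulk1, adjusted p = 0.0187, Gabarapl1, 0.0368, and Map1lc3a, 0.0486), where 12.7% of all genes did. The 2 that passed in diabetic retinas were Gabarapl1 (adjusted p = 0.0159) and Atg5 (adjusted p = 0.00257), where 14.8% of all genes did. Several of the permutation calls were lost with a time point or a library left out, in fits of fewer libraries. Without ZT5, Ulk1 and Tfeb lost their call in control retinas (permutation p = 0.0886 and 0.454), with amplitudes of 10.2 ± 4.95% and 4.99 ± 3.72%, and without ZT17, Gabarapl1 lost it in control (permutation p = 0.162) and in diabetic retinas (permutation p = 0.336), where it was also lost without ZT21. Map1lc3a lost its control call without ZT5, ZT9, ZT17 or ZT21 (permutation p = 0.283, 0.0736, 0.145 and 0.148). Tfeb lost its control call without ZT5 replicate 1, 2, 4, 5 or 6 or ZT9 replicate 1 (permutation p of 0.0109 to 0.0711 over the left-out libraries). Map1lc3a lost its call without any 1 of 10 of the 30 control libraries, namely ZT5 replicates 1, 2, 3 and 6, ZT9 replicate 1, ZT13 replicate 1, ZT17 replicates 2 and 3 and ZT21 replicates 3 and 4 (permutation p of 0.0158 to 0.0846). Atg7 gained a call in control retinas without ZT13 replicate 2, and also without ZT5, ZT17 or ZT21 (permutation p = 0.0336, 0.0443 and 0.0376). In diabetic retinas Ulk1 and Map1lc3a gained one without ZT5 replicate 4, Ulk1 and Tfeb without ZT9 replicate 4, Map1lc3a without ZT17 replicate 4 and Tfeb without ZT9 replicate 5. Atg7 and Tfeb gained one there without ZT9 (permutation p = 0.0478 and 0.0347) and Sqstm1 without ZT5 (permutation p = 0.0477). The Atg5 call in diabetic retinas held without any 1 time point or library. With the G and C content and length trends removed, Tfeb and Map1lc3a were no longer rhythmic in control retinas (permutation p = 0.133 and 0.181), and Atg7 was (permutation p = 0.00985). Ulk1 was then rhythmic in both genotypes (permutation p = 0.00210 in control and 0.0167 in diabetic retinas). Of the pigment epithelium markers, 4 of 5 were rhythmic in each genotype, and their part in these rhythms was not tested.

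Whether the rhythms differed between genotypes was tested by the interaction of genotype with the cosine in 1 fit of all 58 libraries. No gene of 19120 passed an adjusted p of 0.05, and 3.66% had an unadjusted p under 0.05. Atg5, the gene called rhythmic in diabetic and not in control retinas, had an unadjusted p of 0.0237 in edgeR and an adjusted p of 1, and the other autophagy genes had unadjusted p from 0.330 to 0.952. A different rhythm in diabetic retinas was thus not shown for Atg5, nor for Ulk1, Tfeb and Map1lc3a, which were called in control retinas alone.

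The longer list of 80 autophagy genes, of which 71 are not among the 9, placed these genes in their pathway. In control retinas 22 of the 80 were rhythmic, 17 with a peak at night and 5 by day, where 21.8% of all genes were rhythmic, 10.7% with a night and 11.1% with a day peak. In diabetic retinas 19 were rhythmic, 8 at night and 11 by day, where 23.9% of all genes were, 12.4% at night and 11.5% by day. Both genotypes shared 9 rhythmic genes of the 80, where 11.9% of all genes were rhythmic in both. The 22 became 9 without ZT5 and 11 without ZT17, and the 19 became 12 without ZT17, in settings where the share of all genes fell to 15.9%, 13.2% and 16.3%. With the fold taken between the means of time points in place of single libraries they became 10 and 7, where 13.2% and 14.2% of all genes were called. After adjustment 6 of the 80 passed in control and 8 in diabetic retinas, where 8.43% and 9.89% of all genes did, so these shares were near the background. Between ZT17 and ZT5, 13 of the 80 were higher and 4 lower at night in control retinas, where 7.6% of all genes were higher and 8.14% lower, with a list median of 0.02 on the log2 scale against -0.028 over all genes, and in diabetic retinas 3 were higher and 4 lower, near the 3.8% and 3.95% of all genes, with a median of -0.00 against -0.015. The control count of 17 was 7 without control ZT17 replicate 3 and 11 without control ZT17 replicate 1 or control ZT5 replicate 1, and it was 24 without control ZT17 replicate 2. The calls over all genes moved the same way, from 3011 to 1410, 1837, 1879 and 3807 in these settings. The diabetic count of 7 was 1 without diabetic ZT17 replicate 3, 2 without diabetic ZT5 replicate 2, 4 without diabetic ZT17 replicate 5, 12 without diabetic ZT17 replicate 1 or ZT5 replicate 4, and 14 with the G and C content and length trends removed. Over all genes, 1483 became 917, 1085, 936, 1808 and 1818 without these libraries, and 2135 with the trends removed.

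The counts by role below stand against the 21.8% of all genes that were rhythmic in control and the 23.9% in diabetic retinas, and most roles hold too few genes to be set apart from these shares. By role, the ULK1 complex, which starts the process, had 1 rhythmic gene of 5 in each genotype. This was Ulk1 in control retinas and, in diabetic retinas, Atg13, a regulatory subunit of the ULK1 complex, with 4.49 ± 1.31% at ZT8.3 (permutation p = 0.0146). In the Beclin 1 complex, 1 of 8 genes (Atg14) was rhythmic in control and 3 (Atg14, Pik3c3, Uvrag) in diabetic retinas, all with day peaks. Atg14, the subunit that directs the complex to autophagosome formation, had 5.44 ± 1.83% at ZT6.6 in control retinas (permutation p = 0.0331). Pik3c3, the lipid kinase itself, had 7.94 ± 1.63% at ZT5.9 in diabetic retinas (permutation p = 0.000615, adjusted p = 0.0129). Among the factors that supply membrane, 1 of 10 genes was rhythmic in each genotype, at night. Atg9a, a scramblase carried on vesicles, had 7.29 ± 1.92% at ZT17.6 in control retinas (permutation p = 0.00182), and Wipi1, which binds the lipid that the kinase makes, had 7.26 ± 2.29% at ZT21.2 in diabetic retinas (permutation p = 0.00730). In control retinas Wipi1 had 4.1 ± 1.34% at ZT22.7 (permutation p = 0.0208) and missed the call because of the limit on the fold.

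The conjugation machinery, to which Atg5 and Atg7 belong, had 2 rhythmic genes of 11 in control (Atg10, Atg16l1) and 3 in diabetic retinas (Atg5 and the same pair), all peaking by day. Atg16l1, the partner of the ATG12 and ATG5 conjugate, was rhythmic in both, with 7.73 ± 2.55% at ZT6.3 in control (permutation p = 0.00869) and 9.99 ± 2.37% at ZT6.3 in diabetic retinas (permutation p = 0.00447). Of the 5 ATG8 family genes, the control retinas had 3 rhythmic ones and the diabetic retinas 1, all at night. Gabarap was the one of these outside the 9, with 13.2 ± 3.75% at ZT18.9 in control retinas (permutation p = 0.0163). Cargo receptors had 5 rhythmic genes of 12 in each genotype (all genes 21.8% and 23.9%), of which Bnip3, Ncoa4, Optn and Tex264 were called in both, Wdfy3 in control and Tax1bp1 in diabetic retinas. Sqstm1 was not among them. Bnip3, a receptor for mitochondria that is known to be induced by low oxygen, had the largest amplitude of the listed genes called in control retinas, 18.3 ± 3.57% at ZT19.3 (permutation p = 0.000310, adjusted p = 0.00864), and Optn, an optic neuropathy gene, had 8.25 ± 1.61% at ZT19.7 in diabetic retinas (permutation p = 0.00111).

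Of the 8 genes of fusion with the lysosome, 5 were rhythmic in control retinas by JTK_CYCLE (Plekhm1, Stx17, Tecpr1, Vamp8, Ykt6) and 0 in diabetic retinas, where 21.8% and 23.9% of all genes were. The edgeR cosine called 2 and 0, where it called 12.7% and 14.8% of all genes. None of them passed the test of differential rhythm described above. Stx17, the SNARE of the mature autophagosome, had 9.97 ± 2.39% at ZT8.7 in control retinas (permutation p = 0.00182). Of the 5 transcription factors, Tfeb was rhythmic in control and Tfe3, a related factor, in diabetic retinas, with 6.31 ± 2.85% at ZT20.0 (permutation p = 0.0352). In the mTORC1 and AMPK branch, which restrains or releases ULK1, 3 of 16 genes passed in control (Ddit4, Flcn, Fnip2) and 4 in diabetic retinas (Deptor, Fnip2, Rptor, Tsc1), near the shares of all genes. Fnip2, a partner of folliculin, had 7.54 ± 1.81% at ZT14.8 in control retinas (permutation p = 0.000475), and Tsc1, an inhibitor of mTORC1, had 6.92 ± 1.28% at ZT7.4 in diabetic retinas (permutation p = 0.000265). In control retinas Tsc1 had 4.79 ± 1.2% at ZT8.1 (permutation p = 0.00869) and missed the call because its highest library was 1.24 times its lowest.

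**Figure D5:**
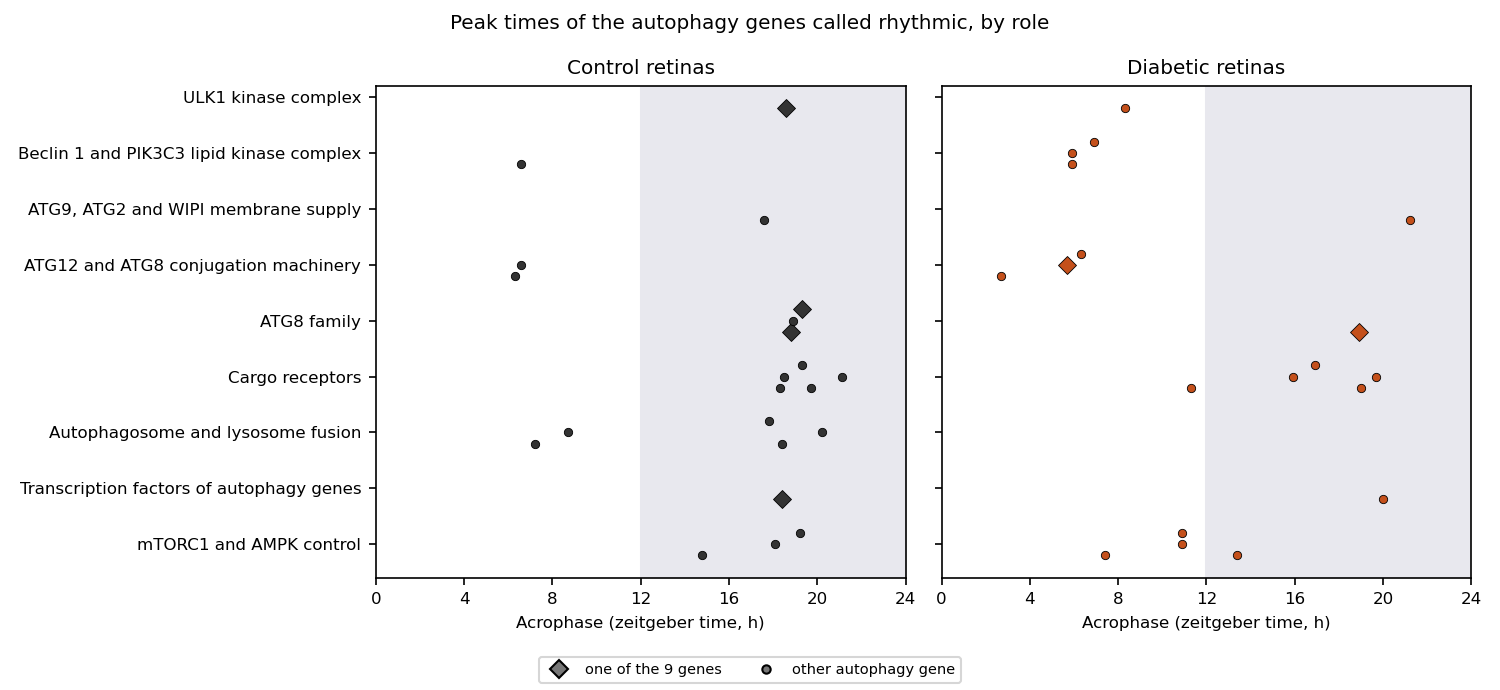
Acrophase in zeitgeber time of the autophagy genes called rhythmic, by role, in control (22 genes) and diabetic retinas (19 genes); diamonds are genes of the 9, circles other listed genes, and the dark phase is shaded. In control retinas 17 genes peak at night and 5 by day, and in diabetic retinas 8 and 11.

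Across the 58 libraries the 9 genes fell into sets that moved together, given here as a description because the libraries share depth, composition and time of day with every gene. The highest Pearson correlation between log2 levels was that of Map1lc3a and Sqstm1 (0.82), followed by Gabarapl1 and Map1lc3a (0.79) and Gabarapl1 and Sqstm1 (0.78). Ulk1 and Tfeb had 0.69. Atg5 and Becn1 had 0.51 with each other and were opposed to Ulk1, at -0.51 and -0.45. Sqstm1 was thus close to the ATG8 genes over libraries although it was not called between times of day. The spread over all libraries was 5.86% of the mean for Becn1, 8.22% for Atg7 and 8.25% for Map1lc3b, and 14.9% for Ulk1 and 17.0% for Tfeb.

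Among 11233 genes with a mean of at least 100 normalized counts, the genes most like Ulk1 over the 58 libraries were Fam222a and Nlgn2, a synaptic adhesion gene, each at 0.94. Those most like Sqstm1 were Prkar1b (0.90) and Gnas (0.89), and those most like Map1lc3a were Rnf187 (0.93) and Gnas (0.90). Gabarapl1 was followed most closely by Ap2m1 and Hsp90ab1, each at 0.89, and Map1lc3b by Atp5a1 (0.83) and Fau (0.80). Tfeb had Gpsm1 (0.80) and Srrm4 (0.77). The likeness was weaker for Becn1, with Srsf7 (0.71) and Tmem128 (0.69), for Atg5, with Mrpl50 and Snrpe, each at 0.66, and for Atg7, with Rapgef1 (0.58).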

How the data were processed

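Total RNA of individual retina samples, depleted of ribosomal RNA, was sequenced by the authors, aligned with STAR 2.7.4a to GRCm38.p5 (Gencode M15) and counted per gene with HTSeq 0.11.1. The deposited values are raw counts, neither normalized nor filtered, with 1 column per library and 0 columns left unused. The strand setting was not given in the sources used here.

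From these counts, genotype and time differences were tested with edgeR 4.0.16 in R 4.3.3 (TMM factors, quasi-likelihood test, Benjamini-Hochberg adjustment), in 1 fit over all time points and 1 fit of 12 groups that share an estimate of the spread. Levels and rhythms used counts divided by DESeq2 1.42.0 size factors. Empirical JTK_CYCLE was re-implemented (period 24 h, 6 phases, 5 widths of 4 to 20 h, 200000 shuffled series), with acrophases and amplitudes from a least-squares cosine. Differential rhythm was tested as an interaction in edgeR in place of the study's package. Gene models, lengths and base composition came from Gencode M21 and promoters from RefSeq. Named beside the 9 genes were the listed genes past an adjusted p of 0.05 between genotypes (there were none), the listed gene outside the 9 with the smallest rhythm p in each role and genotype if called, and the 2 genes most correlated with each of the 9, except for 1 that is not reported here. Other listed genes were named where a count was 5 or fewer, chosen after their values were seen. The genes, the list of 80 and the marker lists were chosen with earlier results of these data known. The identity of the proteins was not analysed here. Replicates were biological replicates per the study's methods, which do not say whether 1 or both retinas of a mouse entered a sample, and no pair of libraries of a group agreed within sampling noise. The fits were tested on simulated counts. Alternatives were other normalizations, filters and tests (DESeq2, limma 3.58.1), a replicate block, removal of G and C content and length trends fitted on 18377 genes, and each library and time point left out. Leaving out the libraries with over 1000 lens counts was added after the data were seen.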

Additional observations from a re-analysis of the deposited data

Results flagged for a closer look

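In 5 of 108 combinations of gene and group, 1 library stood apart from the others of its group by Dixon's test, and chance alone flags about 1 in 20 groups. Map1lc3a was at 707.2 normalized counts in diabetic ZT5 replicate 4, where the other 4 libraries lay between 513.2 and 569.0. This library also held the highest Ulk1 and Gabarapl1 and the lowest Atg5 values of its group. Gabarapl1 was at 2261.9 in diabetic ZT13 replicate 5, against 2815.5 to 2919.0 in the others. Atg5 was at 320.6 in control ZT13 replicate 3, against 212.7 to 242.9, and at 197.9 in diabetic ZT21 replicate 3, against 219.7 to 226.4. Tfeb was at 191.8 in control ZT9 replicate 4, against 141.2 to 155.5. The 5 values came from 5 libraries, and all were kept in every test.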

How the results depend on the processing

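The genotype comparisons and the differential rhythm test called 0 of the 9 genes under each alternative run. The Map1lc3b difference between genotypes, 0.00, turned slightly negative with no filter (-0.00066), DESeq2 (-0.00015), the replicate block (-0.0056) and the removal of G and C content and length trends (-0.01), and ran from -0.0084 to 0.0091 with 1 library left out. In control retinas, ZT17 against ZT5 called 4 genes with DESeq2, 4 with the replicate block (Gabarapl1 and Map1lc3a added), 4 without the libraries with lens transcripts and 1 with the G and C content and length trends removed, where Atg5 turned to 0.04. Of all genes, 16.1%, 22.1%, 16.5% and 15% were called in these settings, against 15.7% as reported. Leaving out 1 library gave 0 to 4 in control and 0 to 3 in diabetic retinas, and 0 to 1 for ZT13 against ZT1 in control retinas. This last count was 1 with the G and C content and length trends removed, where 1.28% of all genes were called, against 0.858% as reported. Rhythmic genes of the 9 in control retinas were 0 by the adjusted p with the same limit on the fold, 2 with the fold taken between time point means, 2 without ZT5, 0 by a test of any time difference in edgeR and 2 to 5 with 1 library left out. For the first 4 of these settings the shares of all genes were 8.23%, 13.2%, 15.9% and 9.48%. In diabetic retinas there were 1 by the adjusted p with that limit, 4 without ZT9, 1 without ZT17, 1 without ZT21 and 2 to 4 with 1 library left out, with 9.8%, 21.1%, 16.3% and 16.4% of all genes in the first 4. Shares of all genes with 1 library left out are not given here, so whether those counts moved with all genes cannot be told. With the G and C content and length trends removed there were 3 in each genotype, where 25% and 27.3% of all genes were called. Of the 80 listed genes, 10 in control and 7 in diabetic retinas were rhythmic with the fold taken between means, where 13.2% and 14.2% of all genes were, and 3 (Foxo3, Mtor and Rptor, -0.10 to -0.06) were called between genotypes over all time points with the trends removed, where 4.87% of all genes were. The labels do not say that a replicate number marks a shared litter, batch or day, and not every pair of the same number deviated together, so the numbers were not taken to pair the samples. Of 26 pairs of a control and a diabetic library with the same number and time, 19 had correlated deviations over 0.1, and over all 26 the correlation ran from -0.44 to 0.81. Over pairs from different groups the median was 0.18 for the same number and -0.03 for other numbers, and 25 of 58 libraries correlated best with one of their own number. Replicate 4 held the highest Ulk1 value in 8 of 12 groups and replicate 1 the highest Becn1 value in 9 of 12. The block moved the calls over all genes from 3011 to 4223 for ZT17 against ZT5 in control retinas. Whether libraries of the same number share an effect is not settled by these values. At this depth and spread, the standard errors of 0.06 to 0.14 at single time points limit which genotype differences could have been called.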
